A study of Homo sapiens with 17 samples.

Results

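The genes of glycolysis and of the hypoxia response were followed in colon cancer cells treated with toyocamycin. The group was a list of 36 named genes, 17 of which encode glycolytic enzymes and the subunits of lactate dehydrogenase, out of 19141 genes counted. Carriers of glucose and lactate, regulators of the flux of sugar, the hypoxia-inducible factors (HIF) with their oxygen sensors, and further targets of HIF made up the rest. The list was drawn up by function, not by measured values, although earlier results of these data were known.

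Glycolysis splits glucose into pyruvate in the cytosol, and lactate dehydrogenase turns the pyruvate into lactate that leaves the cell through a carrier. HIF is a pair of proteins, an oxygen-regulated alpha subunit (HIF1A or EPAS1) and a constant partner (ARNT). In the presence of oxygen the alpha subunit is hydroxylated by EGLN enzymes and degraded, whereas in hypoxia it persists and switches on most genes of glycolysis, the growth factor VEGFA and its own oxygen sensors. Colon cancer cells are known for a high rate of glycolysis.

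The study measured polyA RNA by RNA-seq in YB5 cells. They are a derivative of SW48, a human colon cancer line, and carry a single insertion of a methylated CMV promoter in front of GFP. The cells received 250 nM toyocamycin, an adenosine analog that the study describes as an inhibitor of CDK9, or the vehicle DMSO, for 2, 10, 24, 48 or 72 h. For the latest point the labels give 72 h while the paper writes 96 h, and the labelled time is used here. Of the 17 libraries, 8 came from DMSO and 9 from toyocamycin. Each arm had 2 libraries of 2 h and 3 of 72 h, with a single one, n = 1, of 24 h and of 48 h. The 10 h point had 1 DMSO and 2 toyocamycin libraries. Every library came from the same cell line, kept in L-15 medium, which supplies galactose in place of glucose. Since 1 line was used, the results describe that line. The labels' protocol speaks of biological triplicates without naming separate cultures, so p-values measure the spread between these libraries.

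The libraries held 8735465 to 22121364 counted reads, the fewest in replicate 2 of toyocamycin at 10 h. The labels name 2 batches, and batch 2 held replicate 2 of each arm at 2 and 10 h. Mitochondrially encoded genes took 0.917% to 6.55% of the counts. Of 9 markers of colon epithelium, 7 had a mean of at least 1 CPM (counts scaled to a common library total) in each arm, and their summed level ran from 2262 to 7531 CPM in DMSO and from 384 to 4517 CPM in toyocamycin. The markers of fibroblasts, endothelium and leukocytes summed to at most 23.2 CPM in any library. In bulk RNA, fewer cells of a type and less RNA per cell cannot be told apart. Levels below are CPM after TMM scaling, which assumes that the typical gene keeps its level. The marker sums are the exception, here and below, and are scaled to the library total alone. Library values are given in the order of the replicates.

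Before any treatment effect, the levels per kilobase of exon gave the order of the genes in DMSO at 2 h. GAPDH, the dehydrogenase in the middle of the pathway, stood at 583 and 736 CPM per kb. It was followed by the pyruvate kinase gene PKM (373 and 370) and by the enolase gene ENO1 (306 and 299), and the libraries of these neighbours did not overlap. Among the carriers, the glucose carrier SLC2A1 led with 185 and 150 CPM per kb, whereas SLC2A3, which carries glucose with high affinity, was at 0.02 and 0.01. The genes ALDOA and LDHB were at 1.01 and 0.54 and at 1.27 and 0.67 CPM per kb. Another counted gene covers 42.8% of the exon bases of ALDOA and 33.4% of those of LDHB, and reads that match both genes are counted for neither. The part of this sharing in their values was not tested. Exon bases are also shared in EGLN1 (55.8%), ANKRD37 (40.3%) and CA9 (35.7%). For ANKRD37 and CA9 the other gene lies on the opposite strand. Whether their shared reads were lost depends on the strand setting of the count, which is not given. The values of all 5 genes are therefore uncertain.

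HIF binds DNA at the letters ACGTG or GCGTG. RefSeq promoter windows (GRCh38.p14, from 250 bases before to 50 after a start of transcription) were at hand for 32 of the 36 genes, 59 windows in all. On either strand, ACGTG occurred in 23 of the 59 (39.0%) and in 21.4% of all 35116 windows. The letters GCGTG occurred in 23 of the 59 as well, against 36.5% of all windows. At least 1 of the pair was found in 39 windows (66.1%, against 48.4%), which belonged to 29 genes. The E-box CACGTG, which holds ACGTG on both strands, was in 8 windows (13.6%, against 7.26%). Such a match is a description and not a bound site. The 250 bases before the start are shown for 5 genes that were picked after their values had been seen. LDHA, PGK1 and ALDOC had lower RNA at 72 h of toyocamycin than of DMSO, ADM had higher RNA, and ANKRD37 rose with time in both arms. Capitals mark either motif and its reverse complement.
LDHA: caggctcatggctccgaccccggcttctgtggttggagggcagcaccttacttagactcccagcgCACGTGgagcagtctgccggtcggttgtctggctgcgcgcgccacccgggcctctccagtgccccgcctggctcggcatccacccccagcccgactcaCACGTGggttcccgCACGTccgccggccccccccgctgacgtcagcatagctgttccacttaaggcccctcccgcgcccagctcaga
PGK1: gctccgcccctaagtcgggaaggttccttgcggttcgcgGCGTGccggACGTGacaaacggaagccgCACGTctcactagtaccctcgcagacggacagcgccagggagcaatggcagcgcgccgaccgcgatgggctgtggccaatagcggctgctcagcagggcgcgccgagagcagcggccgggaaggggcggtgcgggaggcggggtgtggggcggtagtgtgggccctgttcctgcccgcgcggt
ALDOC: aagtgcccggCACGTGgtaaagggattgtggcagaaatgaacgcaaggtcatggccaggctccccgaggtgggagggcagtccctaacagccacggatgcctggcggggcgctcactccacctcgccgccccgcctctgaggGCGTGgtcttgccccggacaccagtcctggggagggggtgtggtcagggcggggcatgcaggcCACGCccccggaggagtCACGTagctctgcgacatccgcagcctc
ANKRD37: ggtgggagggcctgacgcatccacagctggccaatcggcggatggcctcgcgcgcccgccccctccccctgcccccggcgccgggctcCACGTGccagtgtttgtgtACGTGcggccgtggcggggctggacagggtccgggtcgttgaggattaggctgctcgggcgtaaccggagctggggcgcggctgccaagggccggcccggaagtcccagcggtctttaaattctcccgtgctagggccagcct
ADM: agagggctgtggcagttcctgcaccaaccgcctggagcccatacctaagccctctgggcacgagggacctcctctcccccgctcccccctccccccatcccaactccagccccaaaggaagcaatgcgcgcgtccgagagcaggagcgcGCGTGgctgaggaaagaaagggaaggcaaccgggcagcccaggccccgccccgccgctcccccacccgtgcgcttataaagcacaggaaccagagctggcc
They lie at chr11:18394313-18394562 (LDHA, plus strand), chrX:78103998-78104247 (PGK1, plus), chr17:28576896-28577145 (ALDOC, minus), chr4:185396591-185396840 (ANKRD37, plus) and chr11:10304823-10305072 (ADM, plus). The stretch of LDHA held ACGTG 5 times, with each of its 2 E-boxes counted on both strands, and that of ADM held it 0 times, with GCGTG once.

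Most of the group rose with time in culture without the drug. Between 2 and 72 h in DMSO, 28 of the 35 tested genes were higher and 1 was lower, against 10.2% higher and 11.4% lower among all 14491 genes tested (edgeR quasi-likelihood test, Benjamini-Hochberg adjusted p under 0.1). The median log2 fold change was 1.08 for the group and -0.03 for all genes. All 4 carriers, all 3 flux regulators and 8 of 9 enzymes of upper glycolysis were higher. With the stricter demand of a 1.5-fold change, 18 genes were higher. A scaling on mitochondrially encoded genes gave 20 higher. SLC16A1, HK1, PFKL, PFKM, TPI1, PGAM1, ENO1 and HIF1A then did not pass. With batch as a term, PFKL (0.31), HIF1A (0.53) and EGLN1 (0.43) did not pass. The summed level of the markers of colon epithelium, most of it KRT8, rose over the same course, from 4292 and 3727 CPM to 7131, 7531 and 6722 CPM. Not all of these markers rose. CDX2 went from 5665 and 3564 counts to 1641, 1525 and 1319 counts. EPCAM had 6179 and 6120 counts at 2 h and 5548, 5452 and 6725 counts at 72 h. The part of these markers in the results was not tested.

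SLC2A1, the main glucose carrier, was at 1224 and 992 CPM after 2 h in DMSO and at 1493 CPM after 24 h. It stood at 2789 CPM after 48 h, and by 72 h it reached 3821, 3948 and 3294 CPM. Each 72 h library lay above both 2 h libraries, a log2 fold change of 1.73 ± 0.17 (SE; edgeR quasi-likelihood, adjusted p = 7.79e-06). The lactate exporter SLC16A3 went from 192 and 151 CPM to 383, 422 and 280 CPM, again without overlap (1.08 ± 0.22, edgeR adjusted p = 0.00432). SLC2A3 had 3 and 2 counts at 2 h and 60, 63 and 75 counts at 72 h, but also 42 counts at 24 h and 2 at 48 h, so that it did not climb steadily. The ratio of its pooled counts at 72 and 2 h, scaled by library, was 26.3 with a 95% exact interval of 11.1 to 82.0 that covers counting error only.

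HK2, the hexokinase that HIF induces, moved from 92.8 and 99.98 CPM at 2 h to 454, 500.3 and 487 CPM at 72 h in DMSO. The groups were far apart, with a log2 fold change of 2.32 ± 0.15 (edgeR adjusted p = 1.87e-07). LDHA, the lactate dehydrogenase subunit that favours lactate formation, had 443 and 555 CPM at 2 h and 286 CPM at 24 h, and by 72 h 1340, 1749 and 1985 CPM (1.76 ± 0.18, edgeR adjusted p = 1.68e-05). ALDOC, an aldolase, rose by 2.54 on the log2 scale and ENO2, an enolase, by 2.44. The changes of 2 abundant enzymes, GAPDH (0.27) and PKM (0.29), did not pass the test, nor did those of ALDOA (-0.17) and LDHB (-0.31), whose counts were low and uncertain.

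PDK1, the kinase that holds pyruvate back from the mitochondria, stood at 12.5 and 16.3 CPM at 2 h and at 51.4, 62.1 and 82.5 CPM at 72 h in DMSO. No library of one time reached the other (2.18 ± 0.21, edgeR adjusted p = 8.11e-06). PFKFB3 and PFKFB4 make the activator of phosphofructokinase. PFKFB3 went from 78.9 and 70.0 to 235, 278 and 250 CPM (1.77 ± 0.15, edgeR adjusted p = 1.7e-06) and PFKFB4 from 13.6 and 13.7 to 45.3, 61.4 and 50.7 CPM (1.94 ± 0.18, edgeR adjusted p = 4.84e-06).

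Other HIF targets rose with time in DMSO as well. NDRG1, a stress-induced gene, had 21.5 and 17.7 CPM after 2 h in DMSO and 26.4 CPM after 24 h. It reached 80.2 CPM by 48 h and 406, 392 and 324 CPM by 72 h. This was a log2 fold change of 4.25 ± 0.22 (edgeR adjusted p = 1.68e-08). ADM, which encodes the peptide adrenomedullin, rose from 9.76 and 5.24 to 40.0, 60.7 and 48.4 CPM (2.72 ± 0.28, edgeR adjusted p = 1.38e-05). P4HA1, a subunit of the collagen prolyl hydroxylase, rose by 2.07, ANKRD37 by 2.14 and VEGFA by 1.49 on the log2 scale. BNIP3, a mitophagy receptor, was the 1 gene that fell in DMSO, from 26 and 20 counts to 6, 11 and 5 counts (-1.63 ± 0.41, edgeR adjusted p = 0.0154).

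The genes of HIF itself moved less in DMSO. HIF1A was at 43.8 and 61.1 CPM at 2 h and at 67.7, 64.5 and 86.8 CPM at 72 h, a change of 0.48 ± 0.17 (edgeR adjusted p = 0.0733). The test did not pass without DMSO replicate 1 of 72 h (0.53), replicate 3 of 72 h (0.34) or replicate 1 of 2 h (0.26). EPAS1 (-0.21) and ARNT (0.12) did not pass. The oxygen sensor EGLN3, itself a HIF target, rose from 18.4 and 17.7 to 52.3, 68.4 and 62.3 CPM (1.76 ± 0.16, edgeR adjusted p = 4.78e-06). EGLN1 had a log2 fold change of 1.05 ± 0.35 (edgeR adjusted p = 0.0539), which did not pass without DMSO replicate 1 (0.97) or 2 (0.86) of 72 h or replicate 2 of 2 h (0.67). The same 3 libraries decided the call of the phosphofructokinase gene PFKL, whose change of 0.58 became 0.53, 0.49 and 0.36.

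**Figure D1:**
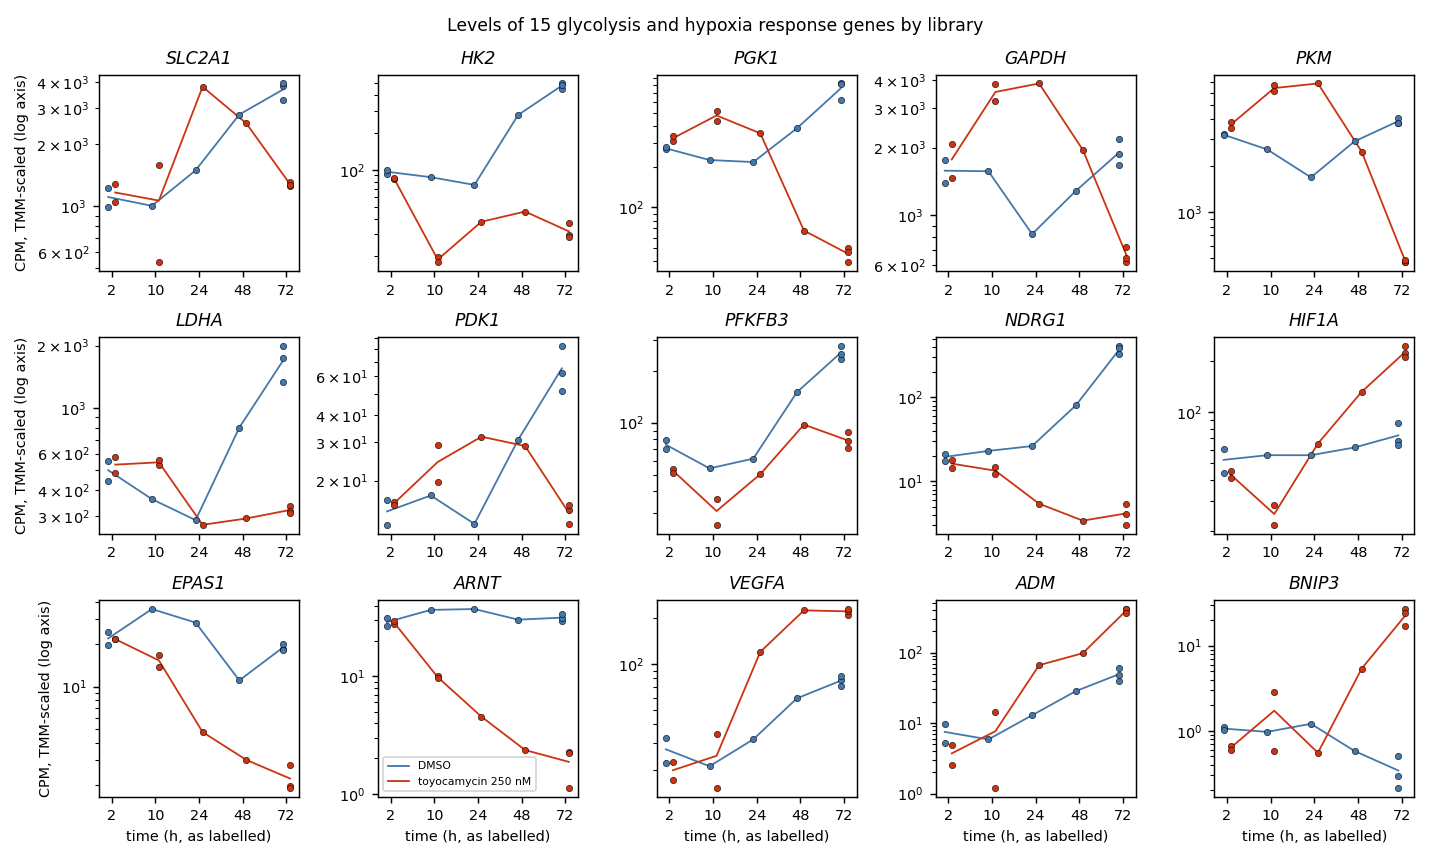
TMM-scaled CPM (log axis) of 15 genes in each library against the labelled time, with points for libraries and lines through the means of DMSO (blue) and toyocamycin (red). SLC2A1, HK2, LDHA and NDRG1 climb in DMSO up to 72 h and lie lower in toyocamycin at that time, whereas HIF1A, VEGFA, ADM and BNIP3 are higher in toyocamycin.

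At 2 h of toyocamycin, 0 genes of the group were higher and 3 were lower, out of 35 tested, against 0.518% higher and 8.42% lower among all genes (edgeR quasi-likelihood, adjusted p under 0.1). At an unadjusted p under 0.05, 0 were higher and 4 lower. The share that was lower, 8.57%, was near that of all genes. The 3 were inducible genes and not enzymes of the main pathway. EGLN3 was at 18.4 and 17.7 CPM in DMSO and at 12.3 and 11.3 CPM in toyocamycin (-0.61 ± 0.17, edgeR adjusted p = 0.0463). PFKFB3 was at 78.9 and 70.0 against 54.1 and 51.2 CPM (-0.50 ± 0.15, edgeR adjusted p = 0.0686). In both genes the arms did not overlap.

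ADM at 2 h was at 9.76 and 5.24 CPM in DMSO and at 4.89 and 2.55 CPM in toyocamycin (-1.0 ± 0.31, edgeR adjusted p = 0.0736). The lowest DMSO library and the highest toyocamycin library were close. With replicate number as a block, which at 2 h is also the batch, its adjusted p was 0.00207, and VEGFA (-0.45, edgeR adjusted p = 0.0977) became a further gene that was lower. The number of lower genes at 2 h was 0 without DMSO replicate 1 or without toyocamycin replicate 2, 1 without toyocamycin replicate 1, and 4 without DMSO replicate 2, so the count depended on each library. EGLN3 did not pass with any 1 of the 4 libraries left out, although its log2 fold change stayed between -0.67 and -0.55, and PFKFB3 passed only without DMSO replicate 2. It was also 0 when all 17 libraries, or the 2 h groups alone, were fitted.

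By 10 h most of the enzyme genes were higher in toyocamycin. Of 36 genes tested, 13 were higher and 8 lower, against 20.4% higher and 24.4% lower of 16521 genes (edgeR quasi-likelihood, adjusted p under 0.1). All 13 were glycolytic enzyme genes, out of 17 in the group. They included ALDOA and LDHB, whose values are uncertain because of their shared exons. LDHB had 58 counts in DMSO and 56 and 130 counts in toyocamycin, so its unscaled counts were higher only in replicate 2. That library had the fewest reads. PKM was at 2549 CPM in DMSO and at 6718 and 6112 CPM in toyocamycin (1.33 ± 0.22, edgeR adjusted p = 0.000282). TPI1, the triosephosphate isomerase, was at 493 CPM in DMSO and at 1075 and 987 CPM in toyocamycin (1.07 ± 0.22, edgeR adjusted p = 0.00142). The only DMSO library at 10 h was below both toyocamycin libraries in these 2 genes. HK2 was the only lower enzyme, at 87.1 CPM in DMSO and at 19.6 and 17.9 CPM in toyocamycin (-2.21 ± 0.22, edgeR adjusted p = 2.81e-06).

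The regulators went the other way at 10 h. HIF1A was at 55.8 CPM in DMSO and at 28.6 and 21.8 CPM in toyocamycin (-1.14 ± 0.26, edgeR adjusted p = 0.00264). ARNT was at 36.8 CPM in DMSO against 10.1 and 9.62 CPM (-1.90 ± 0.25, edgeR adjusted p = 3.06e-05), and EPAS1 was at 35.6 against 13.8 and 16.9 CPM (-1.22 ± 0.23, edgeR adjusted p = 0.000759). All 3 HIF subunits were therefore lower. PFKFB4 (-2.33), SLC16A3 (-1.21), PFKFB3 (-0.82) and NDRG1 (-0.79) were the other lower genes. CA9, the carbonic anhydrase often used to mark hypoxia, had 16 counts in toyocamycin replicate 2 at 10 h and 0 to 2 counts in every other library. That library had the fewest reads and the highest mitochondrial share, 6.55%, and other genes that were nearly silent elsewhere also had counts in it, such as HIF3A (36 counts, at most 2 elsewhere) and ARNT2 (35, at most 3 elsewhere). CA9 was tested at 10 h only and did not pass.

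The directions at 10 and 24 h depended on how the libraries were scaled. With library size alone, 5 genes were higher and 11 lower at 10 h, and with a scaling on mitochondrially encoded genes 0 were higher and 9 lower. Without toyocamycin replicate 1 of 10 h, 16 were higher and 11 lower, and without replicate 2, 16 and 8. The median log2 fold change of the group was 0.49 at 10 h, near the 0.42 of all genes, and 0.57 at 24 h against 0 for all genes.

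At 24 h, with 1 library in each arm and a spread taken from the other times, 18 of 35 genes were higher and 10 lower, against 30.7% and 32% of all genes. Library size alone gave 6 higher and 17 lower, and the mitochondrial scaling 0 and 21. SLC2A1 was at 1493 CPM in DMSO and 3804 CPM in toyocamycin. GAPDH was at 826 and 3856 CPM, and PKM at 1676 and 6874 CPM. HK1, the housekeeping hexokinase, went the other way, with 171 CPM in DMSO and 46.0 CPM in toyocamycin.

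At 48 h, again with 1 library in each arm, the balance had turned, with 10 genes higher and 20 lower against 39.2% and 35.5% of all genes. The mitochondrial scaling gave 1 higher and 24 lower. PGK1, the phosphoglycerate kinase, was at 384 CPM in DMSO and 67.5 CPM in toyocamycin. TPI1 was at 686 and 148 CPM, after 516 and 758 CPM at 24 h. VEGFA was at 59.2 and 224 CPM.

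At 72 h nearly the whole group had changed, and most of it downward. Of 35 genes, 26 were lower and 7 higher in toyocamycin than in DMSO, against 41.9% lower and 47% higher among all genes (edgeR quasi-likelihood, adjusted p under 0.1). The median log2 fold change was -2.16 in the group and 0.18 over all genes. Lower genes included 8 of 9 enzymes of upper glycolysis, 7 of 8 of the lower part with lactate dehydrogenase, all 3 flux regulators, 3 of 4 carriers and 3 of 5 HIF subunits and sensors. The genes that did not pass were SLC16A1 (-0.11) and ANKRD37 (0.17). With any 1 library of 72 h left out, the numbers stayed at 26 and 7. The same 3 DMSO libraries served the DMSO course above, and so its rise enters this difference. The summed level of the markers of colon epithelium also moved with the drug. It was 7131, 7531 and 6722 CPM in DMSO at 72 h and 423, 384 and 415 CPM in toyocamycin. At 2 h of toyocamycin it was 4441 and 4102 CPM. KRT8 made up most of the sum in DMSO at 72 h. CDX2 had 1641, 1525 and 1319 counts in DMSO and 986, 1231 and 1157 counts in toyocamycin at 72 h. These counts are not scaled, and the toyocamycin libraries were smaller. Relative to the library totals the arms overlapped for CDX2. With TMM scaling, each toyocamycin library lay above every DMSO library, so CDX2 did not share the fall of the sum. The part of these markers in the results at 72 h was not tested.

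**Figure D2:**
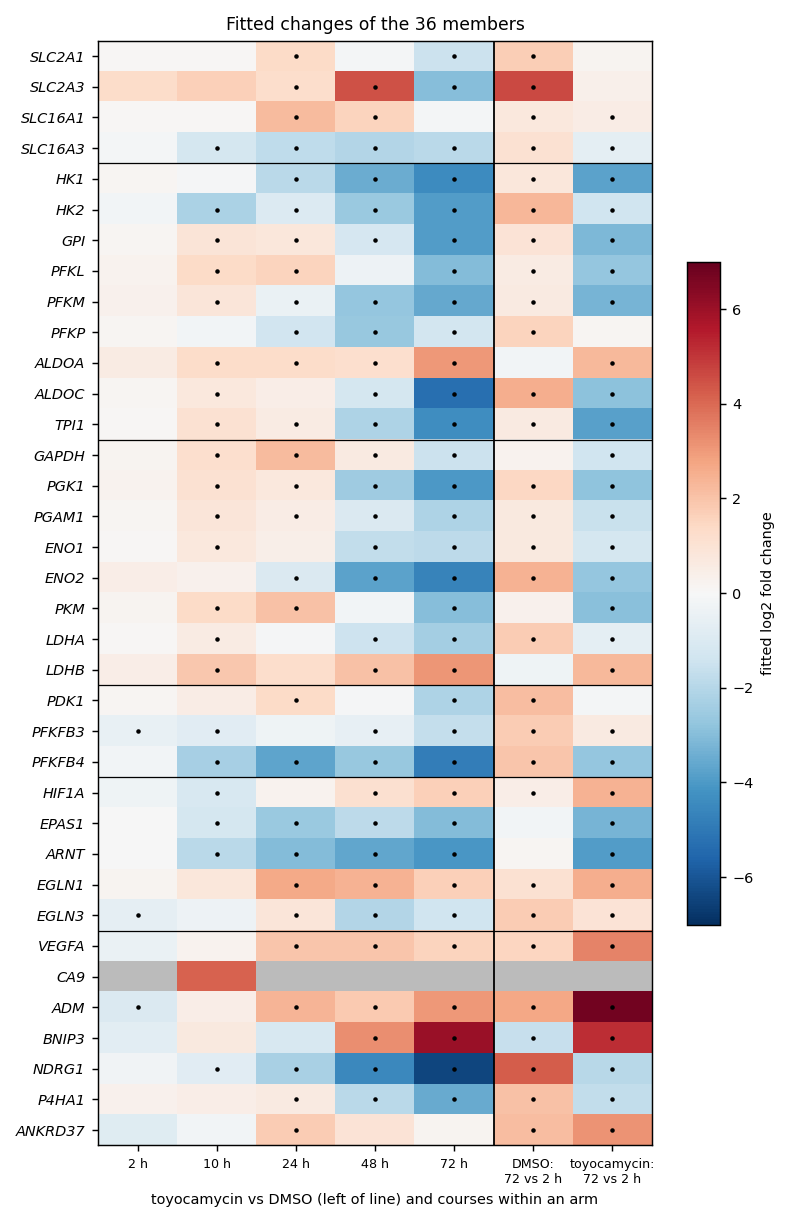
Fitted log2 fold changes of the 36 genes, ordered by role, for toyocamycin against DMSO at 5 times (left of the vertical line) and for 72 h against 2 h within each arm, with a dot where the test passed and grey where a gene was not tested. Red cells prevail among the enzymes at 10 h and mix with blue ones at 24 h. Most enzymes are blue at 48 and 72 h. HK2 is blue from 10 h on, and ALDOA and LDHB are red at 48 and 72 h. At 72 h, 26 of 35 genes are lower.

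Among the enzymes of upper glycolysis, 8 of 9 were lower. HK1 was at 324, 368 and 344 CPM in DMSO at 72 h and at 13.2, 16.96 and 18.3 CPM in toyocamycin (-4.38 ± 0.15, edgeR adjusted p = 1.68e-12). HK2 was at 454, 500.3 and 487 against 29.5, 28.7 and 37.0 CPM (-3.89 ± 0.14, edgeR adjusted p = 2.05e-12). Neither hexokinase had overlapping arms. ALDOC was at 108, 122 and 98.1 CPM in DMSO and at 2.46, 2.78 and 2.87 CPM in toyocamycin (-5.30 ± 0.18, edgeR adjusted p = 1.33e-12). TPI1 was at 902, 1008 and 945 against 45.6, 47.0 and 46.5 CPM (-4.33 ± 0.13, edgeR adjusted p = 6.27e-13). The glucose phosphate isomerase GPI (-3.93) and the phosphofructokinase subunits PFKM (-3.58), PFKL (-3.05) and PFKP (-1.27) were lower as well.

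In the lower part of the pathway, ENO2 was at 251, 289 and 278 CPM in DMSO and at 7.18, 9.73 and 14.3 CPM in toyocamycin (-4.67 ± 0.22, edgeR adjusted p = 2.5e-11). PGK1 fell by 4.01, PKM by 3.01, PGAM1, a phosphoglycerate mutase, by 2.13, ENO1 by 1.83 and GAPDH by 1.49 on the log2 scale. The smallest of these falls, that of GAPDH, still separated all libraries, with 1677, 2185 and 1865 CPM in DMSO and 621, 727 and 648 CPM in toyocamycin. LDHA was at 1340, 1749 and 1985 against 335, 317 and 310 CPM (-2.37 ± 0.16, edgeR adjusted p = 1.63e-09). LDHB, the subunit that favours pyruvate formation, was at 3.82, 1.53 and 1.80 CPM in DMSO and at 20.2, 20.8 and 17.03 CPM in toyocamycin (3.06 ± 0.37, edgeR adjusted p = 1.31e-06). ALDOA rose from 83, 60 and 27 counts to 169, 250 and 285 counts (3.05 ± 0.34, edgeR adjusted p = 5.28e-07). Both of these rising enzymes are among the genes with shared exons.

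The 17 enzyme genes together took a share of all counted reads that needs no scaling factor. After 2 h in DMSO it was 1.20% ± 0.019 (SD, n = 2). It dipped to 1.08% by 10 h and 0.851% by 24 h, and climbed to 1.35% by 48 h and 1.78% ± 0.108 (SD, n = 3) by 72 h. The toyocamycin libraries began with 1.29% ± 0.076 (SD, n = 2) after 2 h and had 1.61% ± 0.156 (SD, n = 2) after 10 h. Thereafter their share dropped to 1.07% by 24 h, 0.524% by 48 h and 0.217% ± 0.0055 (SD, n = 3) by 72 h. The toyocamycin share was thus above that of the lone DMSO library at 10 and at 24 h. At 24 h PKM and GAPDH carried this difference. They held 99950 and 56061 of 237350 enzyme counts in toyocamycin, and 43036 and 21205 of 165939 in DMSO. The remaining enzymes together had a lower share in toyocamycin than in DMSO at 24 h. By 72 h the toyocamycin share of all 17 was 8.22-fold below DMSO, and the arms did not overlap. A two-sided exact permutation test gave p = 0.1, the smallest possible with 3 libraries in each arm.

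**Figure D3:**
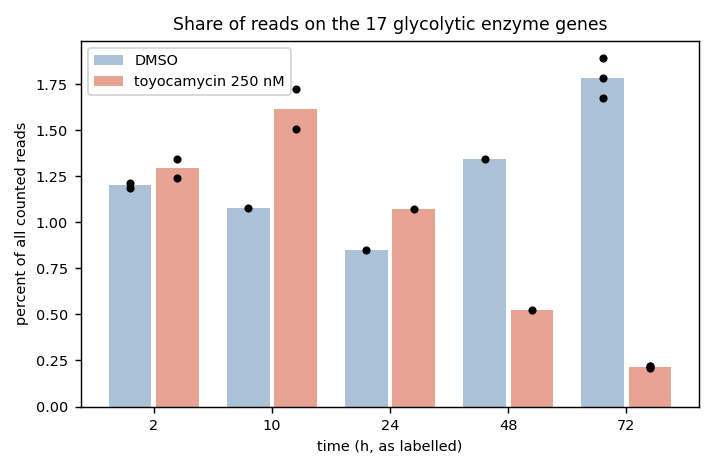
Percent of all counted reads that fell on the 17 glycolytic enzyme genes, by labelled time and arm, with bars for means and points for libraries. The share rises to 1.78% in DMSO and drops to 0.217% in toyocamycin at 72 h.

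Carriers and regulators of the flux were lower at 72 h by unequal amounts. SLC2A1 was at 3821, 3948 and 3294 CPM in DMSO and at 1247, 1318 and 1274 CPM in toyocamycin (-1.49 ± 0.14, edgeR adjusted p = 8.59e-08). SLC16A3 was at 383, 422 and 280 against 75.9, 103 and 104 CPM (-1.90 ± 0.20, edgeR adjusted p = 2.46e-07). SLC2A3 had 60, 63 and 75 counts in DMSO and 5, 2 and 5 counts in toyocamycin (-2.99 ± 0.48, edgeR adjusted p = 2.78e-05). No carrier among these 3 had overlapping arms, whereas SLC16A1, which moves lactate in both directions, was at 290, 290 and 334 against 293, 271 and 262 CPM.

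PFKFB4 was at 45.3, 61.4 and 50.7 CPM in DMSO at 72 h and at 1.57, 1.58 and 2.09 CPM in toyocamycin (-4.87 ± 0.20, edgeR adjusted p = 6.68e-12). PFKFB3 was at 235, 278 and 250 against 78.1, 70.9 and 87.9 CPM (-1.65 ± 0.13, edgeR adjusted p = 6.85e-09). PDK1 was at 51.4, 62.1 and 82.5 against 12.7, 14.6 and 15.4 CPM (-2.16 ± 0.19, edgeR adjusted p = 2.3e-08). The toyocamycin libraries of all 3 regulators lay below every DMSO library.

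The subunits of HIF parted at 72 h. HIF1A was at 67.7, 64.5 and 86.8 CPM in DMSO and at 244, 223 and 211 CPM in toyocamycin (1.66 ± 0.15, edgeR adjusted p = 5.71e-08). EPAS1 was at 18.6, 20.2 and 18.1 against 1.97, 2.78 and 1.91 CPM (-3.06 ± 0.20, edgeR adjusted p = 7.4e-10). ARNT was at 29.8, 31.2 and 33.9 against 2.26, 2.22 and 1.13 CPM (-4.05 ± 0.21, edgeR adjusted p = 8.34e-11). One alpha subunit was thus higher, while the other and the shared partner were lower. The sensor EGLN1 was at 86.0, 96.3 and 50.2 CPM in DMSO and at 200.3, 261 and 267 CPM in toyocamycin (1.68 ± 0.30, edgeR adjusted p = 9.43e-05). EGLN3 was at 52.3, 68.4 and 62.3 against 24.2, 22.2 and 21.6 CPM (-1.40 ± 0.14, edgeR adjusted p = 1.56e-07).

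Targets of HIF outside glycolysis were split too. NDRG1 was at 406, 392 and 324 CPM in DMSO and at 3.05, 4.08 and 5.39 CPM in toyocamycin (-6.44 ± 0.21, edgeR adjusted p = 1.03e-12), the largest fall in the group. P4HA1 fell by 3.52 on the log2 scale. By contrast, ADM was at 40.0, 60.7 and 48.4 against 409, 415 and 370 CPM (3.03 ± 0.23, edgeR adjusted p = 4.98e-09). VEGFA was at 77.7, 83.2 and 71.2 against 210, 224 and 229 CPM (1.54 ± 0.15, edgeR adjusted p = 1.08e-07). BNIP3 rose from 6, 11 and 5 counts to 173, 291 and 277 counts (6.07 ± 0.31, edgeR adjusted p = 5.63e-11), the largest rise. With the mitochondrial scaling, the rises of HIF1A (0.61), EGLN1 (0.54) and VEGFA (0.45) kept their direction but did not pass.

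The change within the toyocamycin arm does not use the DMSO libraries of 72 h. Against 2 h of toyocamycin, 11 genes were higher and 20 lower at 72 h, against 46.5% higher and 40.8% lower of all genes (edgeR quasi-likelihood, adjusted p under 0.1). This comparison was added after the rise in DMSO had been seen. Set beside the DMSO course, with which it shares no library, 16 genes were higher in DMSO and lower in toyocamycin, as were 4.66% of all genes. They were ALDOC, ENO1, ENO2, GPI, HK1, HK2, LDHA, NDRG1, P4HA1, PFKFB4, PFKL, PFKM, PGAM1, PGK1, SLC16A3 and TPI1. ADM, ANKRD37, EGLN1, EGLN3, HIF1A, PFKFB3, SLC16A1 and VEGFA, 8 in all, were higher in both arms, as were 4.46% of all genes.

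PDK1 (-0.11), PFKP (0.15), SLC2A1 (0.17) and SLC2A3 (0.38) were higher with time in DMSO, and their change on toyocamycin did not pass. SLC2A1, for instance, was at 1285 and 1046 CPM at 2 h of toyocamycin and at 1247, 1318 and 1274 CPM at 72 h. ARNT, EPAS1, GAPDH and PKM were lower on toyocamycin and did not pass in DMSO. BNIP3, ALDOA and LDHB were higher on toyocamycin, BNIP3 being lower in DMSO. NDRG1 went from 18.2 and 14.4 to 3.05, 4.08 and 5.39 CPM on toyocamycin (-1.93 ± 0.21, edgeR adjusted p = 5.21e-07), beside -6.44 against DMSO of 72 h. The fall of SLC16A3 (-0.70) did not pass without toyocamycin replicate 1 of 2 h (-0.36). ADM rose there from 4.89 and 2.55 to 409, 415 and 370 CPM (6.75 ± 0.34, edgeR adjusted p = 6.23e-11).

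**Figure D4:**
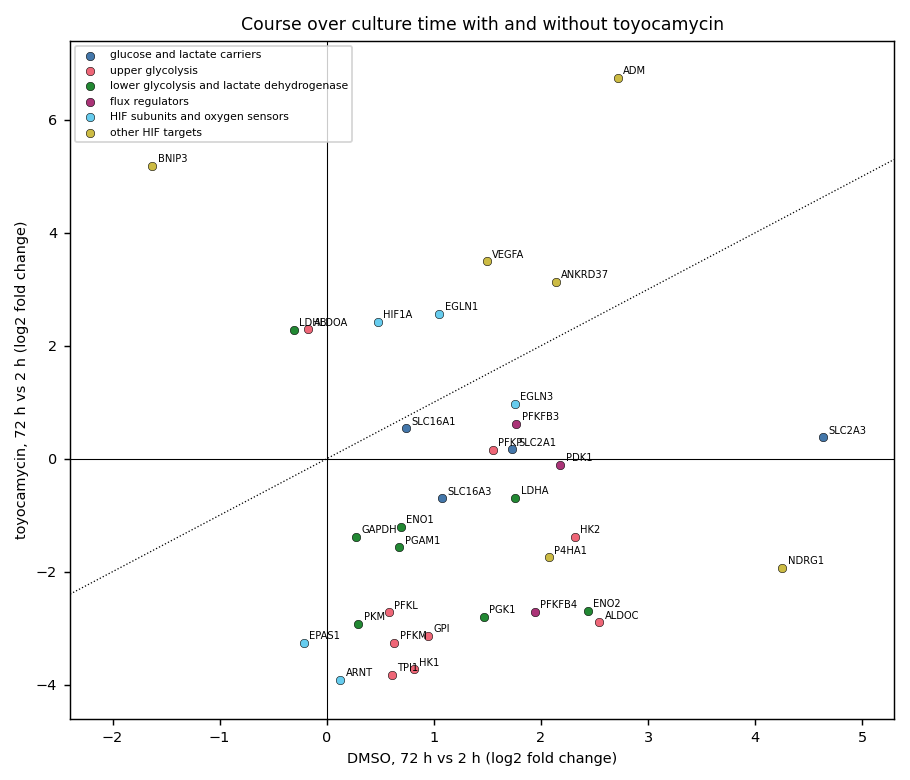
Log2 fold change of 72 h against 2 h in toyocamycin (vertical axis) and in DMSO (horizontal axis) for the 35 tested genes, coloured by role, with the dotted line where both are equal. The 16 genes at the lower right rose in DMSO and fell in toyocamycin, and ADM and BNIP3 stand at the top.

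The effect of toyocamycin at 72 h differed from that at 2 h for nearly all genes when the difference itself was tested. It was more negative at 72 h for 26 genes and more positive for 8, against 38.1% and 38% of all genes (edgeR quasi-likelihood, adjusted p under 0.1). Against the effect at 24 h, it was more negative for 25 genes and more positive for 4, while 29% and 25.9% of all genes were. With the mitochondrial scaling the 25 became 12, and the 8 of the comparison with 2 h became 4. The 12 genes that were higher at 24 h and lower at 72 h were EGLN3, GAPDH, GPI, P4HA1, PDK1, PFKL, PGAM1, PGK1, PKM, SLC2A1, SLC2A3 and TPI1, a path that 5.11% of all genes took. Of these calls, the higher ones at 24 h rest on the scaling described above. A further 10, ARNT, ENO2, EPAS1, HK1, HK2, NDRG1, PFKFB4, PFKM, PFKP and SLC16A3, were lower at 24, 48 and 72 h, as were 23.6% of all genes. ADM, ALDOA, EGLN1 and VEGFA, 4 in number, were higher at all 3 times, as were 22.1% of all genes.

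Ratios of a pair of related genes within a library are free of scaling. In all 11 pairs, the 3 toyocamycin libraries of 72 h lay apart from the 3 DMSO libraries. Each two-sided exact permutation test gave p = 0.1 (adjusted over the pairs, 0.1), the smallest possible. The share of other gene pairs that lie apart was not determined. Since 47% of all genes were higher and 41.9% lower at 72 h, such separation need not be particular to these pairs. The log2 ratio of ENO2 to ENO1 was -3.23 ± 0.11 (SD, n = 3) in DMSO and -6.12 ± 0.39 in toyocamycin. That of EPAS1 to HIF1A went from -1.93 ± 0.30 to -6.66 ± 0.32, and that of PFKFB4 to PFKFB3 from -2.28 ± 0.10 to -5.47 ± 0.11. The pairs EGLN3 to EGLN1 (-3.11), SLC16A3 to SLC16A1 (-1.79), SLC2A3 to SLC2A1 (-1.44) and PFKM to PFKL (-0.55) shifted in the same direction. SLC2A3 had only 5, 2 and 5 counts in toyocamycin at 72 h, so the size of its shift depends on the pseudocount of 0.5. PFKP to PFKL (1.75) and HK2 to HK1 (0.50) moved toward the first gene. The largest shifts, ALDOC to ALDOA (-8.46) and LDHB to LDHA (5.51), each include a gene with shared exons. So does the pair EGLN3 to EGLN1, through EGLN1.

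**Figure D5:**
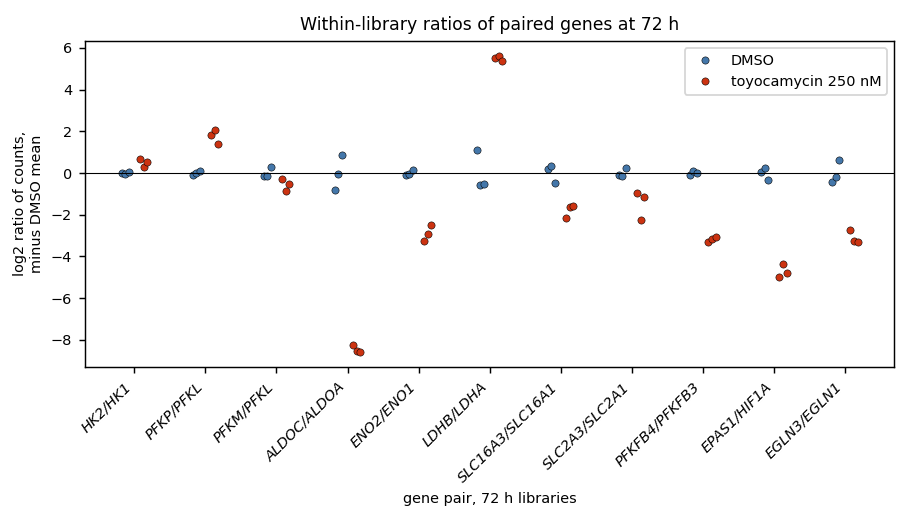
Log2 ratios of counts of 11 gene pairs in the 72 h libraries, each minus the DMSO mean of its pair, with DMSO in blue and toyocamycin in red. The 3 red points of each pair lie apart from its 3 blue points, and LDHB/LDHA, PFKP/PFKL and HK2/HK1 are the 3 pairs that shift upward.

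Neighbouring pathways were examined with lists of other genes, to be read against the 41.9% lower and 47% higher among all genes at 72 h. Of 8 genes of the pentose phosphate pathway, which branches from glucose 6-phosphate, 7 were lower and 1 higher at 72 h. H6PD, which acts in the endoplasmic reticulum, was at 89.1 ± 4.35 CPM in DMSO and 8.95 ± 2.65 CPM in toyocamycin (SD, n = 3), a log2 fold change of -3.28. RPIA was the 1 higher gene (0.79). Among 18 genes of gluconeogenesis, galactose and glycogen, 13 were lower and 4 higher. PGM1, which links galactose and glycogen to glycolysis, fell by 5.25 and the glycogen synthase GYS1 by 5.19 on the log2 scale.

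Of 13 genes for the entry of pyruvate into mitochondria, 8 were lower and 3 higher at 72 h, when 41.9% and 47% of all genes were. The kinase PDK3 fell by 5.09 and PDHB, a subunit of pyruvate dehydrogenase, by 4.17, whereas the phosphatases PDP1 (3.35) and PDP2 (0.59) rose. Of 16 tested genes for other isoforms and regulators of the pathway, 9 were higher and 5 lower, the first near the 47% of all genes in share. TIGAR, a phosphatase that lowers the activator of phosphofructokinase, was at 4.33 ± 0.24 CPM in DMSO and 492 ± 41.6 CPM in toyocamycin (SD, n = 3; log2 fold change 6.86). BSG, the chaperone of lactate carriers, rose by 0.53, and SLC2A8 (-1.98) and PFKFB2 (-0.82) were lower.

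In the HIF machinery, 7 of 11 genes were higher and 3 lower at 72 h, against 47% and 41.9% of all genes. CITED2, which competes with HIF for its coactivators, was at 42.2 ± 5.77 CPM in DMSO and 3088 ± 435 CPM in toyocamycin (SD, n = 3; log2 fold change 6.23). ELOB, of the ligase that degrades HIF, rose by 2.60, and HIF1AN (-1.72) and CUL2 (-0.91) were lower. Of 38 further HIF targets, 19 were higher and 15 lower, shares near those of all genes. Among them the repressors BHLHE41 (11.16, from a mean of 0.475 CPM) and BHLHE40 (5.80) rose, and the collagen-modifying enzymes PLOD1 (-4.24) and P4HA2 (-3.45) were lower. In DMSO between 2 and 72 h, when 10.2% of all genes were higher and 11.4% lower, 18 of these 38 were higher and 4 lower, beside 3 and 1 of 8 in the pentose phosphate pathway, 5 and 2 of 18 in gluconeogenesis and glycogen, 4 and 4 of 13 in pyruvate entry, 3 and 2 of 16 in the other isoforms, and 0 and 1 of 11 in the HIF machinery.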

How the data were processed

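YB5 cells were profiled by polyA-selected, paired-end RNA-seq in 17 libraries. Reads were mapped by the authors to GRCh38 (STAR 2.7.5a). The authors counted reads per gene in GeneCounts mode and deposited the raw counts of 19141 genes. The strand column that was counted is not given in the sources used here. Whether reads of overlapping genes on opposite strands were told apart is therefore not known. Of these genes, 19080 were matched to symbols, and positions came from GENCODE 44 on the same build. A deposited table of the authors' own comparisons holds fold changes and p-values and was not used. There was 1 column of the count table that matched no labelled sample and was left out.

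Groups came from the labels. Genes were filtered with filterByExpr, scaled with TMM and tested with the quasi-likelihood test of edgeR 4.0.16 in its older form, as in the authors' version (R 4.3.3, limma 3.58.1, DESeq2 1.42.0; Python 3.11.15, pandas 2.3.3, numpy 2.4.6, scipy 1.17.1). Calls were made at a Benjamini-Hochberg adjusted p under 0.1 over all genes tested, with no minimum fold. A fit of 14 libraries (14491 genes) gave the results at 2, 24, 48 and 72 h and the courses, and a fit of all 17 libraries (16521 genes) those at 10 h. CA9 was filtered out of the first. With 1 library per arm at 24 and 48 h, the other groups supplied the spread and no p of a single gene is given. Ratios used a pseudocount of 0.5 and the exact permutation test. Scripts were tested on simulated data.

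Library totals ran from 8735465 to 22121364 counts. Reads carried no molecular identifiers and may stem from the same molecule, so intervals cover counting error alone. The members, lists, tests and alternatives were chosen with earlier results of these data known. Every member could be named. Library values are given for a fixed set of members and for the 6 largest rises and falls at 72 h with a mean log2 CPM not under 2, and genes of each other list were named where they had the 2 largest rises or falls at 72 h among those with separated libraries and a mean log2 CPM not under 4, other than values not reported here. Alternatives were other scalings, tests, filters, thresholds and sets of libraries, batch as a term, replicate number as a block, and leaving out each library. The toyocamycin course and the count without genes of shared exons (over 30% of exon bases) were chosen after seeing the data.

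Replicate numbers mark the batch at 2 h and were read as pairing the arms there (correlation of deviations 0.307). The main tests, also at 2 h, used group means without this pairing or the batch. Both entered only as alternatives. At 72 h the same numbers gave -0.105, 0.043 and -0.088 and were not taken as pairs.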

Additional observations from a re-analysis of the deposited data

Results flagged for a closer look

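A difference between 2 time points in the effect of toyocamycin was tested directly, as an interaction in edgeR's quasi-likelihood fit. From 2 to 72 h the effect moved downward in 26 genes of the group and upward in 8, and from 24 to 72 h it moved downward in 25 and upward in 4. Of all genes, 38.1% moved down and 38% up between 2 and 72 h, and 29% and 25.9% between 24 and 72 h. With the scaling on mitochondrially encoded genes, the 25 became 12 and the 8 became 4.

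ADM was the 1 gene that passed at both times in opposite directions, with lower RNA at 2 h (-1.0) and higher RNA at 72 h (3.03), and its interaction was 4.03 ± 0.38 (edgeR adjusted p = 1.62e-07). Its value at 2 h did not pass without DMSO replicate 1 (-0.47) or without toyocamycin replicate 2 (-0.63). HIF1A had an interaction of 1.95 ± 0.24 (edgeR adjusted p = 2.9e-06), with -0.29 at 2 h, which did not pass, and 1.66 at 72 h. At 10 h, in the separate fit, HIF1A was lower (-1.14).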

How the results depend on the processing

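At 72 h, 622 values of single genes under the alternatives kept direction and call, and 3 kept direction only. The other comparisons were less firm. The number of lower genes at 2 h was 0 with the mitochondrial scaling, with all 17 libraries, with the 2 h groups alone and with a minimum fold of 1.5, and 1 at an adjusted p under 0.05. Higher genes at 10 h numbered 5 with library size alone, 0 with the mitochondrial scaling and 5 with the minimum fold. At 24 h, higher and lower genes numbered 6 and 17 with library size alone and 0 and 21 with the mitochondrial scaling, and 11 were higher with the minimum fold. The mitochondrial scaling also gave 1 higher at 48 h, 4 higher at 72 h, 4 with a more positive effect at 72 than at 2 h, and 12 with a more negative effect at 72 than at 24 h. It moved the median of all genes to -2.16 at 24 h, -1.64 at 48 h and -0.89 at 72 h. In DMSO, the 1 lower gene became 0 with that scaling, with at least 10 counts in every library, with batch as a term and with the minimum fold. The higher genes in DMSO numbered 18 with the minimum fold and 20 with the mitochondrial scaling. Without the genes of shared exons, 4 were higher at 72 h, 4 and 2 had a more positive effect at 72 than at 2 and 24 h, and 7 were higher in the toyocamycin course. In that course, library size alone reversed SLC16A1 (-0.15) and PFKFB3 (-0.073). The cause of these changes was not tested, other than fewer genes counted without shared exons and stricter thresholds.

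With 1 library left out at a time, lower genes ranged from 0 to 4 at 2 h, from 8 to 11 at 10 h, from 26 to 26 at 72 h and from 1 to 1 in DMSO. Higher genes ranged from 0 to 0 at 2 h, 16 to 16 at 10 h, 7 to 7 at 72 h and 25 to 27 in DMSO. The toyocamycin course had 11 to 12 higher and 19 to 20 lower. The effect at 72 minus 2 h had 7 to 8 higher and 25 to 26 lower, and that at 72 minus 24 h had 4 to 4 higher and 25 to 26 lower. With the replicate block, 4 genes were lower at 2 h and 27 higher in DMSO, and no other count of calls moved by over 1.5 times. At 24 and 48 h, 1 library per arm leaves the difference without a replicate of its own. SLC2A3 and CA9 were limited by depth, with 0 to 3 counts in several libraries.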

Other observations

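At 2 h of toyocamycin, several genes outside the list of 36 that act on the same pathways were lower (edgeR quasi-likelihood, adjusted p under 0.1). Of 11 genes of the HIF machinery, 3 were lower, the coactivators CREBBP and EP300 and the competitor CITED2, and of 38 further HIF targets 4 were lower, among them DDIT4, HILPDA and KDM3A. TIGAR was lower as 1 of 16 other isoforms and regulators, and PDK4 and PDP2 as 2 of 13 genes of pyruvate entry. The muscle glycogen phosphorylase PYGM was lower as 1 of 18 genes of gluconeogenesis, galactose and glycogen. It had only 23 and 9 counts in DMSO and 5 and 0 in toyocamycin. In the pentose phosphate pathway 0 of 8 were lower. Of all genes, 8.42% were lower, so the counts in these small lists are not read as a trait of the pathways. CITED2 and TIGAR, which were lower at 2 h, had log2 fold changes of 6.23 and 6.86 at 72 h.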
